A study of Rattus norvegicus with 119 samples.

Results

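Pyroxd2 and Lims2 are genes whose hippocampal RNA level was higher in lead-exposed than in control Long Evans rats in an earlier look at these same arrays, and they were chosen by that measured difference. Each was measured by 1 probe set whose only gene symbol was the member, so 2 of 29214 probe sets are described here, out of 15310 that carried exactly 1 symbol. Because the Long Evans difference between exposed and control animals chose them, its values are given as a description with no test. The tests below concern the same measure in Fischer and Sprague Dawley rats, and contrasts of dose, sex and animal number.

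Hippocampal RNA of each rat was hybridised to an Affymetrix array of its own. Females and males of 3 strains (Long Evans, Fischer and Sprague Dawley) ate lead acetate at 250 or 750 ppm of the food, either perinatally or postnatally. Perinatal exposure began in the dams 10 days before breeding and ended at weaning. Postnatal exposure lasted from birth to postnatal day 45, and control rats received food without lead. In every group the hippocampus was taken on postnatal day 55, so all exposed animals had returned to control food by then. Of the 30 groups, 29 had 4 animals and the male Sprague Dawley controls had 3. Values are log2 intensities as deposited, so a difference of 1 is a change by a factor of 2, and a level tells nothing about the amount of 1 gene against another. The labels name no litters, and p-values measure the spread between animals only. Long Evans and Sprague Dawley are outbred stocks, and Fischer rats are inbred.

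Pyroxd2 encodes a flavin-dependent pyridine nucleotide-disulfide oxidoreductase, which in human cells has been placed in mitochondria and linked to cytochrome c oxidase. Lims2 encodes PINCH-2, an adaptor built of LIM domains. PINCH proteins, integrin-linked kinase and parvins form the complex that ties integrins at focal adhesions to the actin cytoskeleton. PINCH-1, the product of Lims1, is the close relative of PINCH-2, and Lims1 was not analysed here because it had no probe set with a single symbol. Lead itself is a developmental neurotoxicant for which the hippocampus is a much studied target.

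In the RefSeq annotation of build GRCr8, Pyroxd2 (Entrez 309381, probe set 10715400) spans chr1:251472609-251498316 on the minus strand. Lims2 (Entrez 361303, probe set 10800696) spans chr18:23828164-23866363 on the plus strand. The oligodendrocyte precursor receptor gene Gpr17, at chr18:23850460-23857381 on the minus strand, lies inside the Lims2 span. The RefSeq promoter set gives 1 start for Pyroxd2 and 2 for Lims2. The 300 bases around each start (250 before and 50 after, 5′ to 3′) are shown to give the sequence context of both genes. Capitals mark matches to the metal response element TGCACNC on either strand. The windows are chr1:251497959-251498258 (minus strand), chr18:23827914-23828213 (plus strand) and chr18:23837454-23837753 (plus strand). The Pyroxd2 window lies wholly inside the gene span given above, so its bases before the start are not upstream of the annotated gene.
Pyroxd2: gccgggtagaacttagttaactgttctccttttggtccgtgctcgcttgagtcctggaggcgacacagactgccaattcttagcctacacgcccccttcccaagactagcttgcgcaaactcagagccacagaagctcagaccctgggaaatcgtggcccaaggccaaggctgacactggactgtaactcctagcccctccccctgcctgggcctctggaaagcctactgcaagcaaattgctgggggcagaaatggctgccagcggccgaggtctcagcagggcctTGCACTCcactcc
Lims2, upstream start: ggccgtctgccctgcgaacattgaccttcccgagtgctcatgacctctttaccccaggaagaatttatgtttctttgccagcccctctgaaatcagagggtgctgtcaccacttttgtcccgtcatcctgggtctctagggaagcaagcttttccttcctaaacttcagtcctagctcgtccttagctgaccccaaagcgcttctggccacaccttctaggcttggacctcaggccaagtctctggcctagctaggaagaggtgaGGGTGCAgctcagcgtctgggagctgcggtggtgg
Lims2, downstream start: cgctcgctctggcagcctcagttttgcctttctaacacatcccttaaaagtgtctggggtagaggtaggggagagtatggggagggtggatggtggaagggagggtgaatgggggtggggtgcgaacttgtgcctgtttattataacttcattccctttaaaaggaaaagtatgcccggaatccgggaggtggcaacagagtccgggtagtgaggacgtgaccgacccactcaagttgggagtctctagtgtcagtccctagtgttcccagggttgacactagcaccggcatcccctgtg
The motif TGCACNC was found 1 time in the Pyroxd2 window (TGCACTC, plus orientation) and 1 time at the upstream Lims2 start (GGGTGCA, the reverse orientation). It was found in neither orientation at the downstream Lims2 start. Of all 33469 rat promoter windows of this length, 12.2% held it. No match was found in any of the 3 windows for TGCGCNC (in 14.1% of all windows), the antioxidant response core TGACNNNGC (12.1%), the GC box GGGCGG (33.1%) or the E-box CACGTG (6.42%). The windows had a GC content of 58.7% for Pyroxd2 and of 55.7% and 54.3% for Lims2, against a median of 51.7% over all windows. Both TGCACNC matches lie in the bases after the start used, not before it. A match describes letters only, and binding was not measured.

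Facts of the series that touch these genes are as follows. Array medians lay between 7.36 and 7.57. The mean level of Pyroxd2 over all arrays was 7.41, at percentile 49.6 of all probe sets, and that of Lims2 was 8.26, at percentile 62.2. The hippocampal neuron markers Prox1, Wfs1, Neurod6, Fibcd1, Grik4 and Bok all lay between percentiles 75.2 and 97.5. For X-linked Eif2s3, and for the mean of X-linked Ddx3x and Pbdc1, 8 arrays lay nearer to the median of the opposite sex than to their own. The medians were those of the same strain and of the lower or upper animal numbers. The 8 were 3 Long Evans arrays (male control 4, female controls 1 and 3), 5 Sprague Dawley arrays and 0 Fischer arrays. The labels were kept, and results are also given without these arrays. In Long Evans the animal numbers in the labels fell into separate runs. The 8 controls (1970 to 1977) shared a run with the females of perinatal 750 ppm (1978 to 1981), the males of perinatal 750 ppm had 3444 to 3447, and the other 24 exposed animals lay between 2821 and 2876. What the numbers stand for is not stated in the labels. For 28 of the 32 exposed Long Evans animals, exposure and number run cannot be told apart. Among exposed Long Evans animals, only those of perinatal 750 ppm lay outside 2821 to 2876. Period and dose are therefore partly mixed with number run in that strain.

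Pyroxd2 was lowest in the Long Evans controls and stood higher in each exposed Long Evans group. Exposed Long Evans rats averaged 7.40 ± 0.25 (SD, n = 32) and controls 6.87 ± 0.21 (SD, n = 8), and the mean of the 8 differences by sex was 0.53 ± 0.08 (log2, SE). These are the values that chose the gene. Among female controls, Pyroxd2 read 7.10, 6.83, 6.57 and 7.25, and among male controls 6.72, 6.91, 6.79 and 6.83. By label, the females ran from 6.57 to 7.25 and the males from 6.72 to 6.91. Female controls 1 (7.10) and 3 (6.57) and male control 4 (6.83) are the arrays whose X-linked genes disagreed with the label, so a comparison of the spread by sex rests on those labels. Over all probe sets, 62 (51 higher and 11 lower) passed an adjusted p of 0.05 in this contrast, which is 0.212%.

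**Figure D1:**
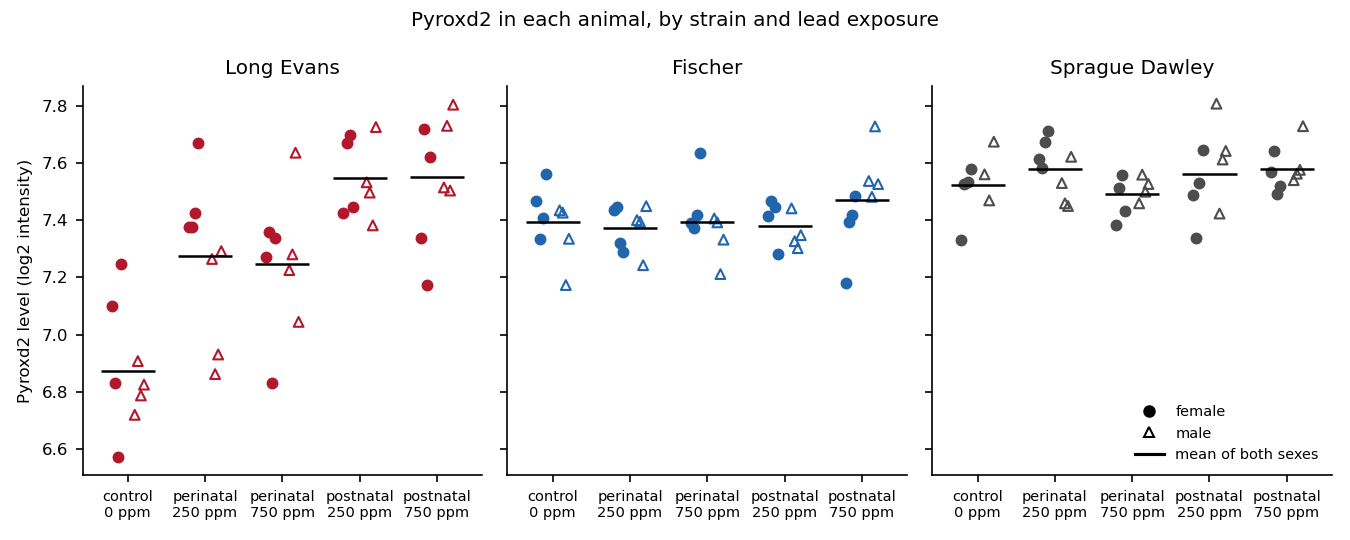
Pyroxd2 level (log2 intensity, vertical axis) in each animal of the 3 strains, by period and dose, with females as filled circles, males as open triangles and the mean of both sexes as a bar. Long Evans controls lie at 6.57 to 7.25, below 26 of the 32 exposed Long Evans animals, while exposed and control animals of the other strains share 1 range.

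After postnatal lead the Long Evans levels were the highest. At 250 ppm, females read 7.43, 7.67, 7.70 and 7.45, and males 7.53, 7.50, 7.38 and 7.73. At 750 ppm, females read 7.34, 7.72, 7.17 and 7.62, and males 7.51, 7.73, 7.50 and 7.80. All postnatally exposed males stood above every male control, and of the females only the one at 7.17 lay inside the range of the female controls. With both sexes averaged, the difference from control was 0.67 ± 0.10 at 250 ppm and 0.68 ± 0.10 at 750 ppm.

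After perinatal lead the mean Long Evans levels lay between those of controls and those of the postnatal groups. At 250 ppm, females read 7.38, 7.37, 7.43 and 7.67, and males 7.26, 6.86, 6.93 and 7.29. At 750 ppm, females read 7.27, 7.36, 6.83 and 7.34, and males 7.23, 7.28, 7.64 and 7.04. At 250 ppm the male at 6.86 fell inside the control range of its sex, and at 750 ppm the female at 6.83 did. The difference from control was 0.40 ± 0.10 at 250 ppm and 0.37 ± 0.10 at 750 ppm. Postnatally exposed animals averaged 7.55 and perinatally exposed animals 7.26 (n = 16 each), a difference of 0.29 ± 0.07. The animals of perinatal 750 ppm lay outside the number run of the other exposed animals, so period and run are partly mixed here.

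All told, the exposed mean was above the control mean of the same sex in 8 of 8 Long Evans groups, 5 of the 8 groups did not overlap their controls, and 29 of 32 exposed animals stood above the highest control of their sex. Taken without regard to sex, 26 of 32 stood above the highest of all 8 controls. These counts restate the difference that chose the gene. How often groups of other probe sets clear their controls was not counted, for this or any other count of overlap given here. The females of perinatal 750 ppm, whose numbers ran on from those of the controls, averaged 7.20 ± 0.25 (SD, n = 4), against 6.94 ± 0.30 in female controls (SD, n = 4). That difference of 0.26 was the smallest of the 8. Exposed animals numbered 2821 to 2876 averaged 7.46 and those numbered 3444 to 3447 averaged 7.30. Without the 3 controls that disagreed with their sex label the mean Long Evans difference was 0.48 ± 0.09, and over the leaving out of each animal in turn it ran from 0.47 to 0.58. Within Long Evans groups Pyroxd2 varied more than most probe sets, with a pooled SD of 0.20 (percentile 87.1). In Fischer and Sprague Dawley groups this SD was 0.10 (percentile 14.8) and 0.096 (percentile 25.2).

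In Fischer rats no change of Pyroxd2 passed the test. Exposed animals averaged 7.40 ± 0.11 (SD, n = 32; from 7.18 to 7.73, median 7.40) and controls 7.39 ± 0.11 (SD, n = 8; from 7.17 to 7.56, median 7.42). The mean difference was 0.01 ± 0.04 (limma, adjusted p = 1), with a 95% interval from -0.07 to 0.09. No probe set was called in this contrast by limma, 0%, against 729 at an unadjusted p of 0.05. By period and dose the differences ran from -0.02 to 0.08 with an SE of 0.05, the highest at postnatal 750 ppm (adjusted p = 1). There the males read 7.54, 7.48, 7.73 and 7.53, against 7.43, 7.43, 7.17 and 7.33 in male controls, without overlap. The females read 7.18, 7.39, 7.42 and 7.48, against 7.47, 7.33, 7.41 and 7.56 in female controls, and overlapped them. How many of all probe sets have a group that clears its controls was not counted, so the males' lack of overlap cannot be weighed. The share of probe sets called was 0.0103% at postnatal 750 ppm and 0% in each of the other 3 Fischer contrasts (unadjusted p of 0.05: 805 at perinatal 250 ppm, 1114 at perinatal 750 ppm and 515 at postnatal 250 ppm).

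Sprague Dawley rats likewise gave no call for Pyroxd2. Exposed animals averaged 7.55 ± 0.10 (SD, n = 32; from 7.34 to 7.81, median 7.55) and controls 7.52 ± 0.11 (SD, n = 7; from 7.33 to 7.67, median 7.53). The mean difference was 0.02 ± 0.04 (limma, adjusted p = 1.0; 95% interval from -0.06 to 0.10), and 0.03 with those 5 arrays dropped. In this contrast 0.0171% of probe sets were called. By period and dose the differences ran from -0.04 to 0.05 (SE 0.05), where 0.0582% of probe sets were called at perinatal 250 ppm, 0.00685% at perinatal 750 ppm and 0.0103% at each postnatal dose. Of the 8 groups, the females of perinatal 250 ppm alone did not overlap their controls, at 7.61, 7.58, 7.67 and 7.71 against 7.33, 7.53, 7.53 and 7.58. The share of all probe sets with such a group was not counted, so this cannot be weighed. Between Fischer and Sprague Dawley rats the mean lead effect differed by -0.01 ± 0.08 (adjusted p = 1.0), where 0.0103% of probe sets were called.

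The order of the control levels of Pyroxd2 was Long Evans (6.87), Fischer (7.39) and Sprague Dawley (7.52). Fischer minus Sprague Dawley controls gave -0.14 ± 0.07 (limma, adjusted p = 0.25), no call in a contrast where 10.5% of probe sets were called. That fit pooled the variance of all groups, those of Long Evans included. The within-group SD of Pyroxd2 was 0.20 in Long Evans, 0.10 in Fischer and 0.096 in Sprague Dawley. Whether Fischer and Sprague Dawley controls differ beyond the spread of their own strains was therefore not tested. No Fischer or Sprague Dawley animal fell below 7.17, a level under which 7 of the 8 Long Evans controls lay. The exposed Long Evans mean of 7.40 stood beside the Fischer means of 7.40 (exposed) and 7.39 (control).

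Lims2 also had a higher mean in each exposed Long Evans group than in controls of the same sex. With both sexes together, its perinatal groups averaged above its postnatal ones. Exposed Long Evans rats averaged 8.39 ± 0.17 (SD, n = 32) and controls 8.09 ± 0.14 (SD, n = 8), and the mean of the 8 differences by sex was 0.29 ± 0.05 (log2, SE), again the value that chose the gene. Female controls read 8.23, 8.21, 8.13 and 7.95, and male controls 8.07, 7.88, 8.01 and 8.28. The sexes of the control group overlapped.

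**Figure D2:**
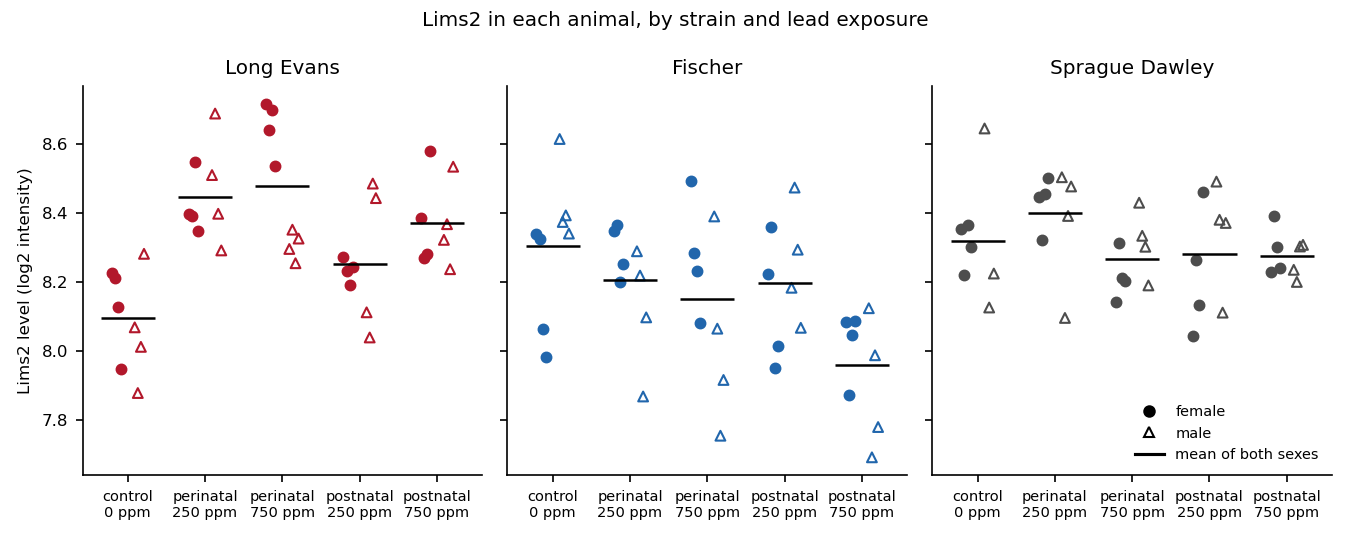
Lims2 level (log2 intensity, vertical axis) in each animal of the 3 strains, by period and dose, with females as filled circles, males as open triangles and the mean of both sexes as a bar. In Long Evans, 23 of 32 exposed animals lie above the highest control at 8.28, while 7 of 32 exposed Fischer animals lie below the lowest Fischer control at 7.98.

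With both sexes averaged, perinatal lead went with the highest Long Evans levels of Lims2. At 250 ppm, females read 8.40, 8.39, 8.55 and 8.35, and males 8.51, 8.69, 8.40 and 8.29. At 750 ppm, females read 8.72, 8.64, 8.70 and 8.53, and males 8.29, 8.35, 8.25 and 8.32. The females at 750 ppm were the highest group of all 30, and 7 of the 8 animals at that dose exceeded every control of their sex. The differences from control were 0.35 ± 0.07 at 250 ppm and 0.38 ± 0.07 at 750 ppm.

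With both sexes averaged, the postnatal groups stood closer to the controls at each dose. Males at 750 ppm went the other way, with differences of 0.31 after postnatal and 0.25 after perinatal lead. At 250 ppm, females read 8.27, 8.23, 8.19 and 8.24, and males 8.11, 8.04, 8.48 and 8.44. At 750 ppm, females read 8.38, 8.27, 8.28 and 8.58, and males 8.32, 8.37, 8.24 and 8.53. Both sexes at 250 ppm overlapped their controls, while the females at 750 ppm did not. The differences from control were 0.16 ± 0.07 at 250 ppm and 0.28 ± 0.07 at 750 ppm. Postnatally exposed animals averaged 8.31 and perinatally exposed animals 8.46 (n = 16 each), a difference of -0.15 ± 0.05. As for Pyroxd2, period and number run are partly mixed in this difference.

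For Lims2, too, the exposed mean was above the control mean of the same sex in 8 of 8 Long Evans groups. Here 4 groups did not overlap their controls, and 27 of 32 exposed animals stood above the highest control of their sex. These counts restate the choosing difference, and the share over all probe sets was not counted. The females of perinatal 750 ppm, in the number run of the controls, averaged 8.65 ± 0.08 (SD, n = 4), against 8.13 ± 0.13 in female controls (SD, n = 4), and that difference of 0.52 was the largest of the 8. Exposed animals numbered 2821 to 2876 averaged 8.36 and those numbered 3444 to 3447 averaged 8.31. Without the 3 controls that disagreed with their sex label the mean difference was 0.35 ± 0.06, and over the leaving out of each animal in turn it ran from 0.26 to 0.33. The within-group SD in Long Evans was 0.13, at percentile 51.7.

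**Figure D3:**
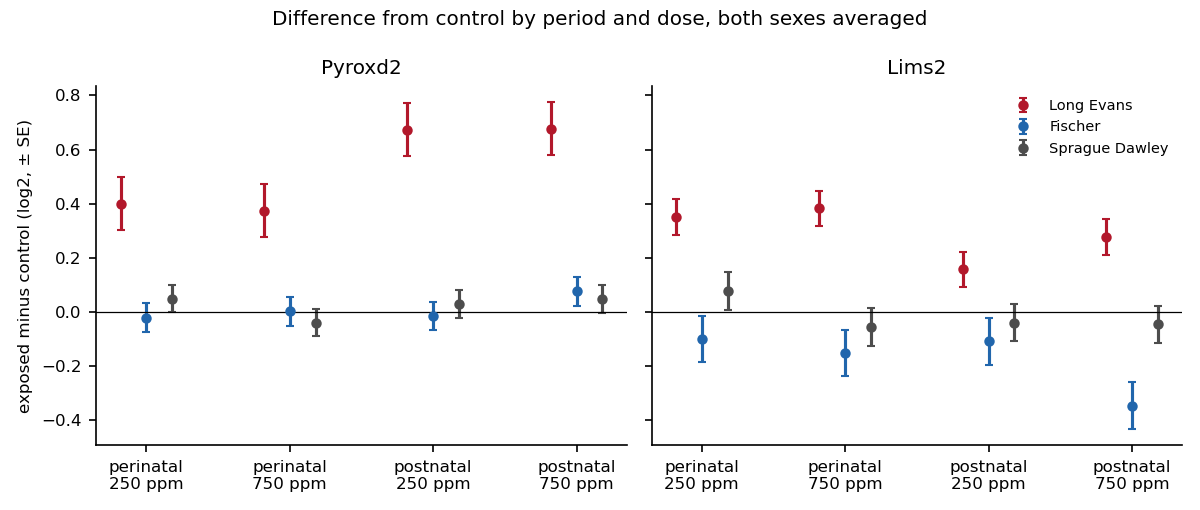
Difference of exposed from control animals (log2, vertical axis, both sexes averaged) for Pyroxd2 and Lims2 at each period and dose in the 3 strains, with points for the estimate and bars for its standard error. Long Evans points lie above 0 throughout, higher after postnatal lead for Pyroxd2 and after perinatal lead for Lims2, and the Fischer points of Lims2 lie below 0.

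In Fischer rats Lims2 values lay the other way, without passing the test over all probe sets. Exposed Fischer animals averaged 8.13 ± 0.21 (SD, n = 32; from 7.69 to 8.49, median 8.11) and controls 8.30 ± 0.20 (SD, n = 8; from 7.98 to 8.61, median 8.34). The mean difference was -0.18 ± 0.07 (limma, unadjusted p = 0.0135, adjusted p = 1). Its 95% interval ran from -0.31 to -0.04, and the probe set ranked 166 of 29214 by p. The difference was -0.10 ± 0.09 at perinatal 250 ppm, -0.15 ± 0.09 at perinatal 750 ppm, -0.11 ± 0.09 at postnatal 250 ppm and -0.35 ± 0.09 at postnatal 750 ppm. The last of these had an unadjusted p of 0.0003 (rank 19) and an adjusted p of 0.46, which over the alternative settings ran from 0.057 (animal numbers as a block) to 0.67 (array weights).

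In Fischer males all 4 differences of Lims2 were below 0, and 2 of the 4 groups did not overlap their controls. The share of all probe sets with such groups was not counted. Male controls read 8.61, 8.37, 8.39 and 8.34. After postnatal 750 ppm the males read 8.12, 7.69, 7.99 and 7.78, and after perinatal 250 ppm 8.29, 8.22, 7.87 and 8.10, and all 8 lay below every male control. The differences in males were -0.31 and -0.40 at perinatal 250 and 750 ppm and -0.18 and -0.53 at postnatal 250 and 750 ppm. In females they were 0.11 and 0.09 at the perinatal doses and -0.04 and -0.16 at the postnatal doses. Female controls averaged 8.18 ± 0.18 and male controls 8.43 ± 0.12 (SD, n = 4 each), so the male controls stood higher. The sex difference of the lead effect, females minus males, was 0.36 ± 0.14 (limma, unadjusted p = 0.0122, adjusted p = 1.0), in a contrast where 0% of probe sets were called (733 at an unadjusted p of 0.05).

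In Sprague Dawley rats Lims2 did not pass either. Exposed animals averaged 8.30 ± 0.13 (SD, n = 32; from 8.04 to 8.50, median 8.30) and controls 8.32 ± 0.17 (SD, n = 7; from 8.12 to 8.64, median 8.30). The difference was -0.02 ± 0.06 (limma, adjusted p = 1.0; 95% interval from -0.13 to 0.09). It was -0.03 with the 5 arrays that disagreed with their label dropped, and none of the 8 groups stood clear of its controls. By period and dose the values ran from -0.06 to 0.08 (SE 0.07). Fischer minus Sprague Dawley gave -0.16 ± 0.09 for the mean lead effect (adjusted p = 1.0) and -0.02 ± 0.08 for the controls (adjusted p = 0.93). Control levels of Lims2 were 8.09 in Long Evans, 8.30 in Fischer and 8.32 in Sprague Dawley. The difference between the last 2 was not called, in a fit that pooled the variance of all groups, Long Evans included. Its sign turned, at 0.077, with number sets as a block.

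Dose among exposed animals gave no call for either gene in any strain. In Long Evans, Pyroxd2 averaged 7.40 at 750 ppm and 7.41 at 250 ppm (n = 16 each), a difference of -0.01 ± 0.07 (limma, adjusted p = 0.99). Lims2 averaged 8.42 at 750 ppm and 8.35 at 250 ppm there, a difference of 0.08 ± 0.05 (adjusted p = 0.80). In Long Evans the perinatal 750 ppm animals lay outside the number run of the other exposed animals, so dose and run are partly mixed. The dose contrast called 0.0548% of probe sets in Long Evans, 0.0719% in Fischer and 0.00342% in Sprague Dawley. The widest dose difference of the members was that of Lims2 in Fischer rats, at 8.05 for 750 ppm and 8.20 for 250 ppm, or -0.14 ± 0.06 (adjusted p = 0.81). Their other 3 values lay between -0.07 and 0.06.

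Period differences outside Long Evans were small and uncalled. They lay between -0.10 and 0.04 (postnatal minus perinatal, SE from 0.03 to 0.06; limma, adjusted p = 1.0 each). This contrast called 0.00342% of probe sets in Fischer and 0.0411% in Sprague Dawley. Females and males of a strain differed by -0.03 to 0.07 in the members (females minus males, lowest adjusted p = 0.42), where 0.0822% of probe sets were called in Fischer, 0.0856% in Long Evans and 0.0171% in Sprague Dawley. In Long Evans the lead effect of females minus that of males was -0.10 ± 0.16 for Pyroxd2 and 0.00 ± 0.10 for Lims2 (adjusted p = 1.0 each), and 0% of probe sets were called (841 at an unadjusted p of 0.05). Without the 3 controls that disagreed with their sex label these values were -0.20 and -0.03. The same contrast called 0.00342% in Sprague Dawley and neither member.

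Animal number within a group was the contrast in which a member passed. In each group the animals with the higher numbers were set against those with the lower ones. In Fischer rats Lims2 averaged 8.07 in the upper numbers and 8.25 in the lower numbers (n = 20 each), a difference of -0.19 ± 0.04 (limma, adjusted p = 4.5e-04). In that contrast 60.9% of all probe sets were called, so a call is common there. Pyroxd2 differed by -0.01 ± 0.03 there (adjusted p = 0.77). Neither gene was called in Long Evans (0.0993% of probe sets) or in Sprague Dawley (17.3%). Each group held animals of both number sets. With the sets as a block the mean lead effects were 0.53 and 0.29 in Long Evans and 0.01 and -0.18 in Fischer rats, for Pyroxd2 and Lims2 in that order.

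Genes on either side of the members on the chromosome were taken as the 5 nearest with a probe set of their own in each direction. Around Pyroxd2, none of the 10 neighbours was called in Long Evans rats. The nearest, the lysosome-related organelle gene Hps1, lies 2111 bases away and differed by 0.07 ± 0.04 (limma, adjusted p = 0.70). The other 9 lay between -0.05 and 0.08.

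Around Lims2, 1 of 10 neighbours was called in Long Evans rats, and it was Gpr17. That contrast called 0.212% of all probe sets, and exposure and number run cannot be told apart in it for most exposed animals. Gpr17 encodes a receptor that marks oligodendrocyte precursors on their way to myelination. Its level averaged 9.69 ± 0.09 in exposed Long Evans rats (SD, n = 32) and 9.48 ± 0.11 in controls (SD, n = 8), a difference of 0.21 ± 0.04 (limma, adjusted p = 0.0071), and 23 of 32 exposed animals lay above the highest control. In Fischer rats the Gpr17 difference was -0.12 ± 0.06 (adjusted p = 1) and in Sprague Dawley rats 0.06 ± 0.03 (adjusted p = 1.0). The 9 other neighbours of Lims2 lay between -0.08 and 0.03 in Long Evans. Without the 3 controls that disagreed with their sex label Gpr17 gave 0.22 (adjusted p = 0.074), no longer a call. The positions of the probes were not used here, so which part of the shared span each probe set reads cannot be stated.

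**Figure D4:**
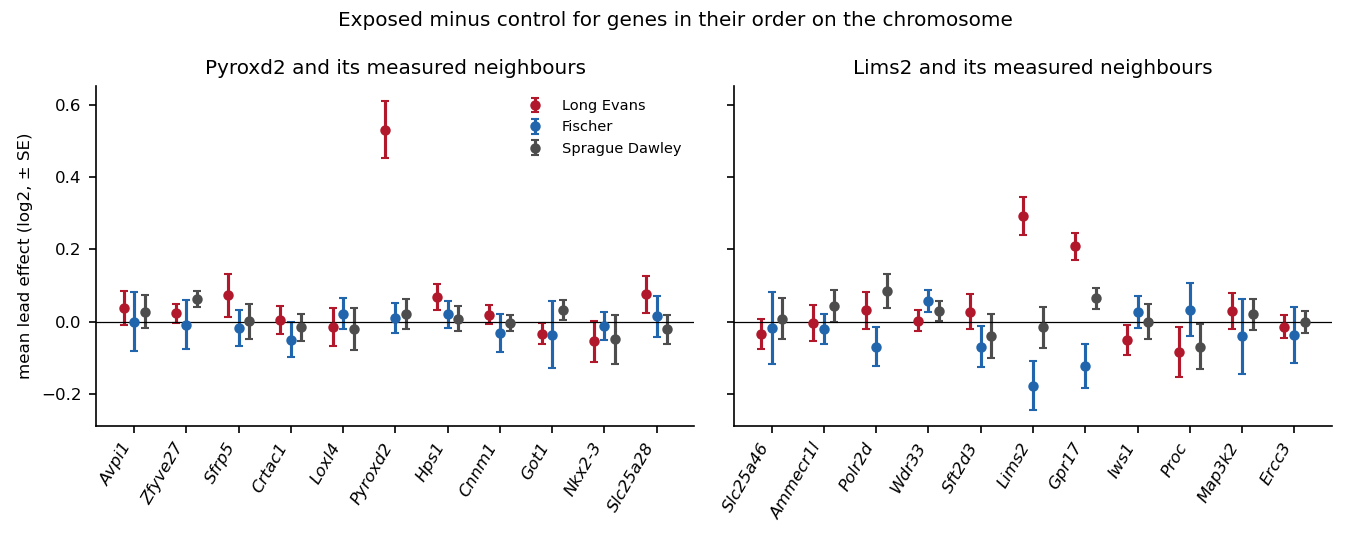
Mean lead effect (log2, exposed minus control, vertical axis) of Pyroxd2, Lims2 and the 5 nearest measured genes on each side, in chromosome order, in the 3 strains, with bars for the standard error. In Long Evans the members stand at 0.53 and 0.29, Gpr17 at 0.21, and the other neighbours between -0.08 and 0.08.

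Partners of the members were looked at through lists, which were drawn up with earlier results of these data known. Of the integrin-linked kinase complex and focal adhesion list, 0 of 18 probe sets passed in Long Evans, with a median difference of 0.02 beside 0.00 over all probe sets. The kinase itself, Ilk, gave 0.03 ± 0.03 (limma, adjusted p = 0.94). Its actin-binding partners Parva and Parvb gave -0.07 ± 0.06 and -0.02 ± 0.03, with adjusted p of 0.88 and 0.98. Rsu1, whose product binds PINCH-1, gave 0.10 ± 0.03 (adjusted p = 0.29), and the integrin activator talin, Tln1, gave 0.08 ± 0.03 (adjusted p = 0.46). At an unadjusted p of 0.05, 3 of the 18 had passed (Rsu1, Tln1 and the integrin subunit gene Itgb1), beside 2177 of all 29214 probe sets.

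For Pyroxd2, the list of flavin disulfide reductases and relatives had 0 of 16 probe sets called in Long Evans, with a median of 0.03. The paralog Pyroxd1 gave 0.01 ± 0.03 (limma, adjusted p = 0.99). Glutathione reductase, Gsr, gave 0.11 ± 0.03 (adjusted p = 0.12), and both probe sets of the spermine oxidase gene Smox gave 0.13 and 0.14 (adjusted p = 0.15 and 0.20). Of the cytochrome c oxidase subunits 0 of 13 probe sets were called, with a median of 0.01 and a widest value below 0.1 in size. In Fischer and Sprague Dawley rats these 3 lists had 0 calls as well, and their medians lay between -0.03 and 0.00.

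**Figure D5:**
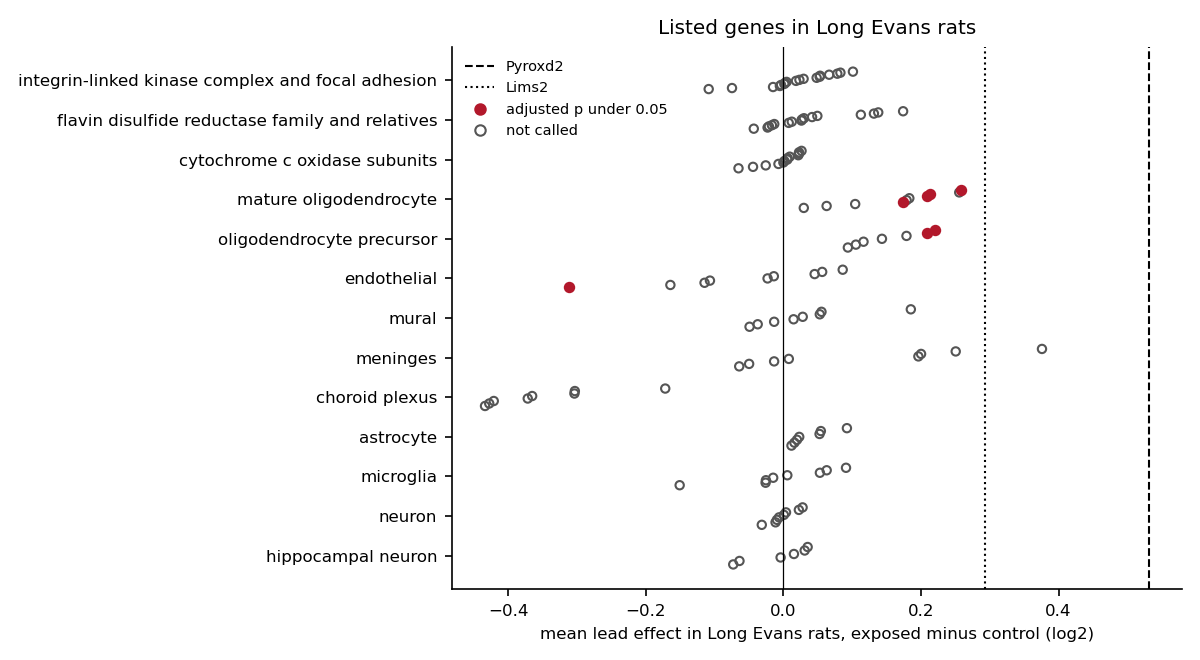
Mean lead effect in Long Evans rats (log2, exposed minus control, horizontal axis) of each probe set in 13 gene lists, with filled points for those called by limma at an adjusted p of 0.05 and lines at the values of Pyroxd2 and Lims2. The calls lie in the lists of mature oligodendrocytes (4), oligodendrocyte precursors (2) and endothelial cells (1).

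Both oligodendrocyte lists stood higher in exposed than in control Long Evans rats, as the members did. In this contrast 0.212% of all probe sets were called. For most exposed Long Evans animals, exposure and number run cannot be told apart, for these genes as for the members. All 10 probe sets of the mature oligodendrocyte list had positive differences and 4 were called, those of the myelin genes Cldn11 (0.21 ± 0.04, limma, adjusted p = 0.0058), Mog (0.26 ± 0.06, adjusted p = 0.045), Mag (0.21 ± 0.05, adjusted p = 0.045) and Cnp (0.17 ± 0.04, adjusted p = 0.048). The list's median was 0.18. Its summed level, as the mean over probe sets, averaged 11.22 in exposed rats (from 11.02 to 11.43) and 11.05 in controls (none above 11.10). All 7 precursor probe sets were positive as well, and Gpr17 and the growth factor gene Bmp4 (0.22 ± 0.05, adjusted p = 0.047) were called. That list averaged 9.46 in exposed rats (from 9.35 to 9.65) and 9.31 in controls (from 9.24 to 9.37). More cells of a type and more RNA per cell cannot be told apart in tissue RNA, nor can fewer cells and less RNA per cell.

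The 6 oligodendrocyte calls depended on which animals were used. None of them remained a call without the 3 controls that disagreed with their sex label (adjusted p from 0.074 to 0.18), while their differences stayed of similar size. Mog then gave 0.31, Bmp4 0.25, Mag 0.22, Gpr17 0.22, Cldn11 0.21 and Cnp 0.19. With 1 animal left out, Gpr17 and Cldn11 kept their calls in 40 of 40 fits, while Mog and Mag kept theirs in 19, Bmp4 in 15 and Cnp in 9. With the mature oligodendrocyte score as a covariate, Pyroxd2 gave 0.50 ± 0.10 and Lims2 0.20 ± 0.06 in Long Evans, beside 0.53 and 0.29 without it. The score itself was higher in exposed rats, so this covariate can take out part of the exposure difference of any gene. How far oligodendrocytes account for the members was not tested. At postnatal 250 ppm the value of Lims2 was then 0.06 ± 0.07, beside 0.16 ± 0.07. In Fischer rats 0 of the 17 oligodendrocyte probe sets were called and all had negative differences. In Sprague Dawley 0 were called and 15 were positive.

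Of the remaining lists, the endothelial one had 1 call in Long Evans, the lectin-domain gene Cd93, at -0.31 ± 0.05 (limma, adjusted p = 0.0035). With the mature oligodendrocyte score as a covariate Cd93 gave -0.30 ± 0.07 (adjusted p = 0.13) and was no longer called. Its difference was then of similar size with a wider SE. The other 8 endothelial probe sets were not called. Astrocyte, microglia, neuron, hippocampal neuron, mural cell, meninges and choroid plexus lists had 0 calls. The choroid plexus list, tissue that a dissection can carry, varied most. It ranged from 6.96 to 11.16 in exposed Long Evans rats and from 6.78 to 10.93 in controls, with a median difference of -0.37. With its score as a covariate the members gave 0.54 and 0.29.

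Within groups, no correlation of Pyroxd2 with Lims2 passed the test. With values centred on group and number set, Pearson's r was -0.27 in Long Evans (n = 40, permutation p = 0.28; Spearman's rho -0.33, p = 0.18; r of -0.46 without the 2 animals farthest from the median). It was 0.00 in Fischer (n = 40, permutation p = 1.0; rho 0.01, p = 0.97; r of -0.06 without those 2) and 0.28 in Sprague Dawley (n = 39, permutation p = 0.13; rho 0.29, p = 0.21; r of 0.23 without those 2). These were among 66 relations of the members with each other and with the marker lists. After Benjamini-Hochberg adjustment 0 passed (lowest adjusted p = 0.20 for r and 0.090 for rho). In Long Evans, r with the mature oligodendrocyte list was -0.003 for Pyroxd2 and 0.01 for Lims2. With the precursor list it was -0.34 and 0.40.

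The genes whose pattern was most like each member were found as those with the highest Pearson r over all arrays after the group means were removed, given as a description. For Lims2 they were Atp10a, a phospholipid flippase (r = 0.65), Pnpla2, the adipose triglyceride lipase (0.64), the ubiquitin ligase gene Rnf43 (0.63), the thiamine transporter Slc19a3 (0.62) and Usp54 (0.59). For Pyroxd2 they were weaker: Rai14 (0.40), the clock repressor Nr1d2 (0.39), the nucleotidase Nt5c1a (0.38), the endonuclease gene Endov (0.37) and the ribosomal protein gene Rps29 (0.37). The r values differed by strain. Nr1d2 gave -0.02 in Fischer, 0.47 in Long Evans and 0.44 in Sprague Dawley, and Rnf43 gave 0.83, 0.44 and 0.41 in that order. All 10 genes share the arrays, and with them whatever varied from array to array within groups. For Lims2 the r values fell to between 0.43 and 0.62 once number sets were removed too. None of the 10 was called in the Long Evans lead contrast, where Slc19a3 came nearest (0.44 ± 0.10, limma, adjusted p = 0.065).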

How the data were processed

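Each hippocampus was hybridised to an Affymetrix array. The authors deposited log2 intensities for 29214 probe sets. RMA and Partek are named in the submitters' processing notes, with order and version not given in the sources used here. The number of arrays per group limits the precision. The members and gene lists were chosen with earlier results of these data known.

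Groups were taken from the labels. Limma 3.58.1 in R 4.3.3 was fitted on group means within each strain, with 1 fit of all groups for Fischer minus Sprague Dawley. P-values were adjusted by Benjamini-Hochberg over all probe sets, and a call is an adjusted p under 0.05. All tests were two-sided. The labels name no litters, and each animal counted as independent. Correlations used values centred on group and number set and 100000 permutations within them. The fit was tested on simulated data with independent noise for each animal. Those data held no differences by number set, number run or litter, so the test does not cover them. Other tools were the R package data.table (1.17.8), Python 3.11.15, numpy 2.4.6, scipy 1.17.1, pandas 2.3.3 and matplotlib 3.10.9.

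Genes were named as follows: the members, the 5 most alike genes of each, the 5 neighbours on each side, up to 4 called genes per list or the first by p, fixed partners (Ilk, Parva, Parvb, Rsu1, Pyroxd1, Gpr17) and the X-linked genes. Itgb1 was named after its value was seen. Gene names came from the platform annotation, and positions and promoters from RefSeq (GRCr8). Alternatives were quantile normalization, array weights, a filter on low values, 1 fit of all arrays, number sets as a block, marker scores as covariates, and leaving out arrays.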

Additional observations from a re-analysis of the deposited data

Results flagged for a closer look

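Among 58 groups of 4 animals tested for a value far from the rest, 1 was found. In Long Evans females of perinatal 750 ppm, Pyroxd2 read 6.83 in replicate 3, while the other 3 animals lay between 7.27 and 7.36. The gap was 0.833 of the group's range, against a critical value of 0.829. Chance flags about 1 in 20 groups.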

How the results depend on the processing

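Of 460 values of the members under other settings, 444 stayed the same, 15 changed sign and 1 moved by more than its replicate spread. For tested values, the same means the same direction and side of the threshold. For the Long Evans values given without a test, it means the same direction and a move within the replicate spread. Of the 46 tested differences (animal number aside), 0 passed the threshold under any setting. With 1 animal left out, 67 of 2458 values changed sign and 0 changed a call. The cause was not tested. Under the oligodendrocyte score, Pyroxd2 turned to 0.013 and 0.040 in Fischer at perinatal and postnatal 250 ppm, 0.0058 for the Long Evans dose difference and 0.011 for Fischer minus Sprague Dawley lead effect. Under the same score, Lims2 gave 0.21 in Long Evans at perinatal 250 ppm, 0.0067 for the Long Evans and 0.033 for the Sprague Dawley sex difference of the lead effect, and Parvb gave 0.011. Array weights gave 0.0061 for Pyroxd2 in Fischer at postnatal 250 ppm and 0.0041 for its Long Evans dose difference. For Lims2 they gave 0.037 for the Long Evans sex difference of the lead effect, 0.026 for the Sprague Dawley lead effect and 0.012 for Fischer minus Sprague Dawley controls, which became 0.077 with number sets as a block. Further quantile normalization gave -0.00205 for Pyroxd2 in Fischer at perinatal 750 ppm and -0.012 for its Fischer sex difference, and the choroid plexus score -0.0043 at perinatal 750 ppm. With 1 animal left out, Pyroxd2 in Fischer ran from -0.017 to 0.031 (mean), -0.049 to 0.00075 (perinatal 250 ppm), -0.028 to 0.023 (perinatal 750 ppm) and -0.042 to 0.0064 (postnatal 250 ppm). In Long Evans it ran from -0.0397 to 0.019 for dose and -0.22 to 0.0071 for the sex difference of the lead effect. In Sprague Dawley it ran from -0.0045 to 0.049 (mean) and -0.00028 to 0.064 (postnatal 250 ppm), and for Fischer minus Sprague Dawley lead effect from -0.0396 to 0.015. Lims2 ran from -0.075 to 0.059 for the Long Evans sex difference of the lead effect and from -0.068 to 0.062 for Fischer minus Sprague Dawley controls. In Sprague Dawley it ran from -0.067 to 0.063 (mean), -0.11 to 0.023 (perinatal 750 ppm), -0.090 to 0.039 (postnatal 250 ppm), -0.097 to 0.033 (postnatal 750 ppm), -0.048 to 0.00375 (sex) and -0.16 to 0.096 (sex difference of the lead effect). Pyroxd1 in Long Evans ran from -0.012 to 0.017. The 62 Long Evans calls became 104 with array weights, 118 in 1 fit of all arrays, 15 without the 3 controls that disagreed with their sex label and 6 with the oligodendrocyte score. They ran from 25 to 75 with 1 animal left out, at 31, 25, 32 and 39 without male controls 1 to 4, 37, 35 and 29 without female controls 2, 3 and 4, and 41 without male 2 of perinatal 750 ppm. The 5 Sprague Dawley calls became 3 above the 40th percentile of level, 10 with array weights, 8 in 1 fit of all arrays and 3 without the arrays that disagreed with their label. They ran from 2 to 7, at 3 and 2 without male controls 1 and 2 and at 2 without female control 1 or 4. With 1 animal left out, calls in the mature oligodendrocyte list ran from 1 to 5 and in the precursor list from 1 to 2. Under the other settings the mature list had 0 calls without the 3 controls or with the oligodendrocyte score, and otherwise from 3 to 6. That score is the mean of the mature list itself, so the calls of this list under the score are no check. The precursor list had 0 calls without the 3 controls or with the score, and otherwise 1 or 2. No paired analysis was possible because the labels give animal numbers and no replicate numbers shared between groups.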
